A study of Mus musculus with 10 samples.

Results

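This section describes 35 genes of blood and lymphatic vessels in mouse pancreas that lacked the Hippo kinases MST1 and MST2. They were chosen by name, as the transcript clusters (the probe sets that the array assigns to a transcript) whose platform gene symbol is a vessel marker or an angiogenic ligand. All 35 were among the 19938 genes measured, 28 of them endothelial markers and 7 ligands, and no filter on low values was applied. Each sample was total RNA of a whole pancreas, read on 1 Affymetrix Mouse Gene 1.0 ST array. The control group (n = 5) is labelled only Control. The DKO group (n = 5) carried PDX1Cre, Mst1-/- and Mst2L/L, and both groups were of mixed background; ages are not given. The Mst1 allele is a null allele and is not limited to a cell type, whereas Mst2 is lost only where Cre acts under the Pdx1 promoter. That promoter is active in pancreatic epithelial progenitors and not in vessels, so endothelial cells of DKO tissue would lack MST1 and keep MST2. The labels do not state whether each array had its own mouse; the p-values therefore describe the scatter among these arrays, which may be technical.

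Blood vessels are lined by endothelial cells held together by VE-cadherin and claudin junctions. Vascular endothelial growth factors (VEGF) from surrounding epithelium drive vessel growth through the receptor kinases VEGFR1 to VEGFR3, angiopoietins act through TIE2, and apelin acts through its own receptor. The pancreas is rich in capillaries, above all in the islets, whose beta cells make VEGF-A. Lymphatic vessels carry VEGFR3, LYVE1 and podoplanin, and their identity depends on the transcription factor PROX1.

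Values are the deposited log2 levels, so a difference of 1 is a doubling. DKO was compared with control by limma (a moderated linear model for each gene), with Benjamini-Hochberg adjustment over all 19938 genes and a threshold of 0.05. Over all genes 2.44% passed, 2.08% higher and 0.366% lower in DKO. The share of higher genes among those that passed was 85.0%, and 72.0% or 72.5% after quantile normalization again or subtraction of array medians. Stk4, the gene of MST1, measured 5.15 ± 0.09 in control and 5.13 ± 0.06 in DKO (SD, n = 5 each), a level within that of olfactory receptor genes, so it gave no check of the labels; Stk3, the gene of MST2, was not analysed here. The hepatocyte list averaged 11.79 in DKO replicate 1 and at most 8.22 elsewhere. Acinar genes averaged 11.62 to 12.36 and islet genes 11.29 to 11.56 over the arrays, so the labelled tissue carried its markers.

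Endothelial and angiogenic genes differed little between control and DKO pancreas. None of the 35 members passed the limma test over all genes, where 2.44% of all genes did. At an unadjusted p of 0.05, 5 of 35 members (14.3%) passed, against 14.8% of all genes: Pdpn, Flt4 and Pgf were higher in DKO, and Sox7 and Pecam1 lower. The groups did not overlap for 1 member, Pdpn, which is 2.86% of the members against 4.80% of all genes. The median log2 change (DKO minus control) was -0.02 over the members and -0.006 over all genes. For 33 of the 35 members the 95% interval of the change lay within a 1.5-fold difference in either direction, and for 23 within 1.25-fold. The 2 whose intervals reached beyond 1.5-fold were Pdpn and Pgf. Among the 28 endothelial markers 20 changes (71.4%) lay below 0, against 52.4% over all genes. After quantile normalization again 24 (85.7%) did, against 55.8% of all genes, and after subtraction of array medians 24, against 64.9%. These are bulk samples, in which fewer cells of a type and less RNA per cell cannot be told apart.

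**Figure D1:**
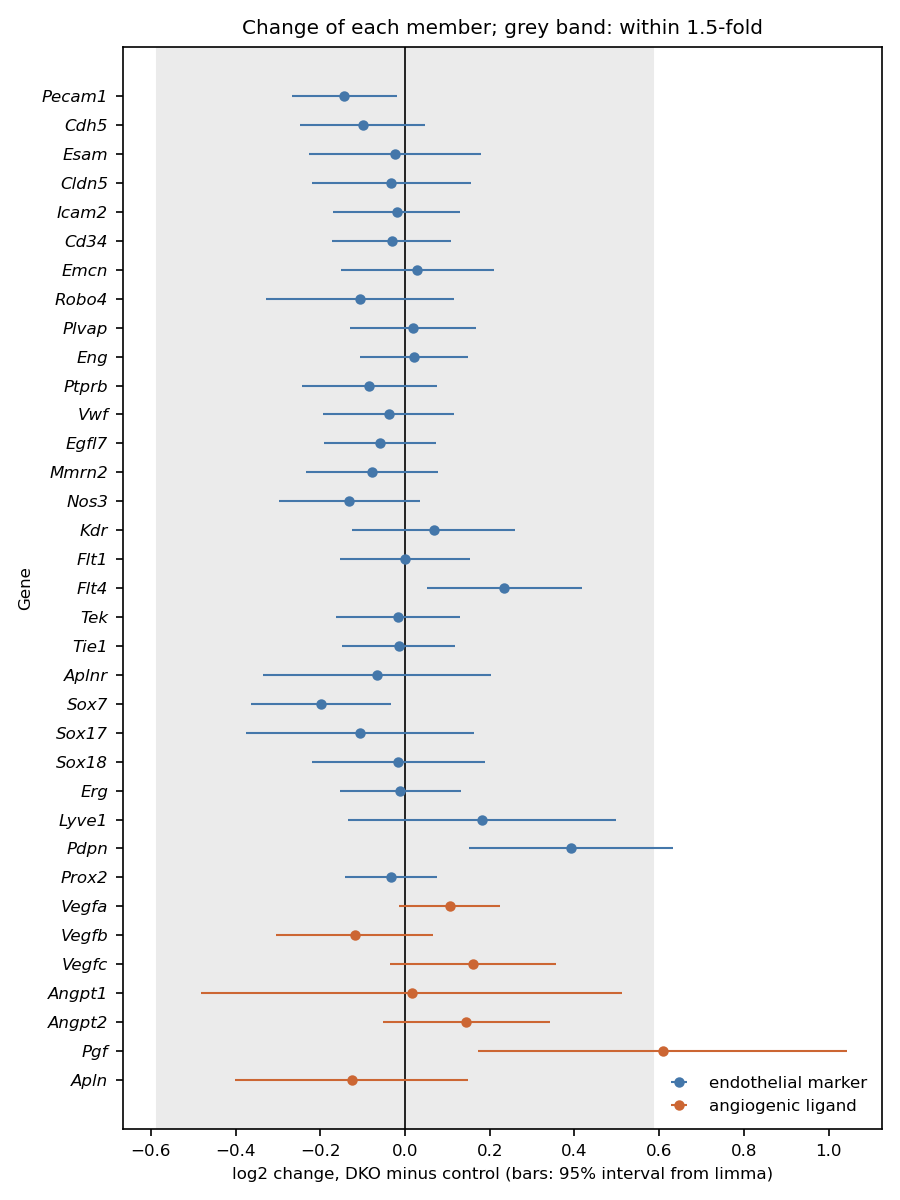
Change of each of the 35 members on the log2 scale, DKO minus control (n = 5 each), with bars for the 95% interval from limma and a grey band for changes within 1.5-fold. The 28 endothelial markers are blue and the 7 ligands orange; only the bars of Pdpn and Pgf reach beyond the band.

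All members were above the level that marks genes not expected in pancreas: the 95th percentile of 1022 olfactory receptor genes was 6.12, and the lowest member mean was that of Prox2 at 6.24. The next lowest was 6.72 (Angpt2). Averaged over the 28 endothelial markers, the control arrays stood at 8.88, 8.78, 8.81, 8.81 and 8.92, in replicate order. The DKO arrays stood at 8.78, 8.91, 8.77, 8.91 and 8.77, and the group means differed by -0.013 on the deposited scale. The median change of the 28 markers was -0.028 on that scale, against -0.006 over all genes. It was -0.07 after quantile normalization again (all genes -0.014) and -0.068 after subtraction of array medians (all genes -0.047). The arrays with more endothelial signal were control replicates 1 and 5 and DKO replicates 2 and 4, so both groups held higher and lower arrays. DKO replicate 4 was the highest DKO array for 13 of the 28 markers and DKO replicate 2 for 11. Control replicate 1 was the highest control array for 10 and control replicate 5 for 9. The spread between arrays was no larger than usual, with a median standard error of 0.0714 for the markers and 0.0754 for all genes.

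**Figure D2:**
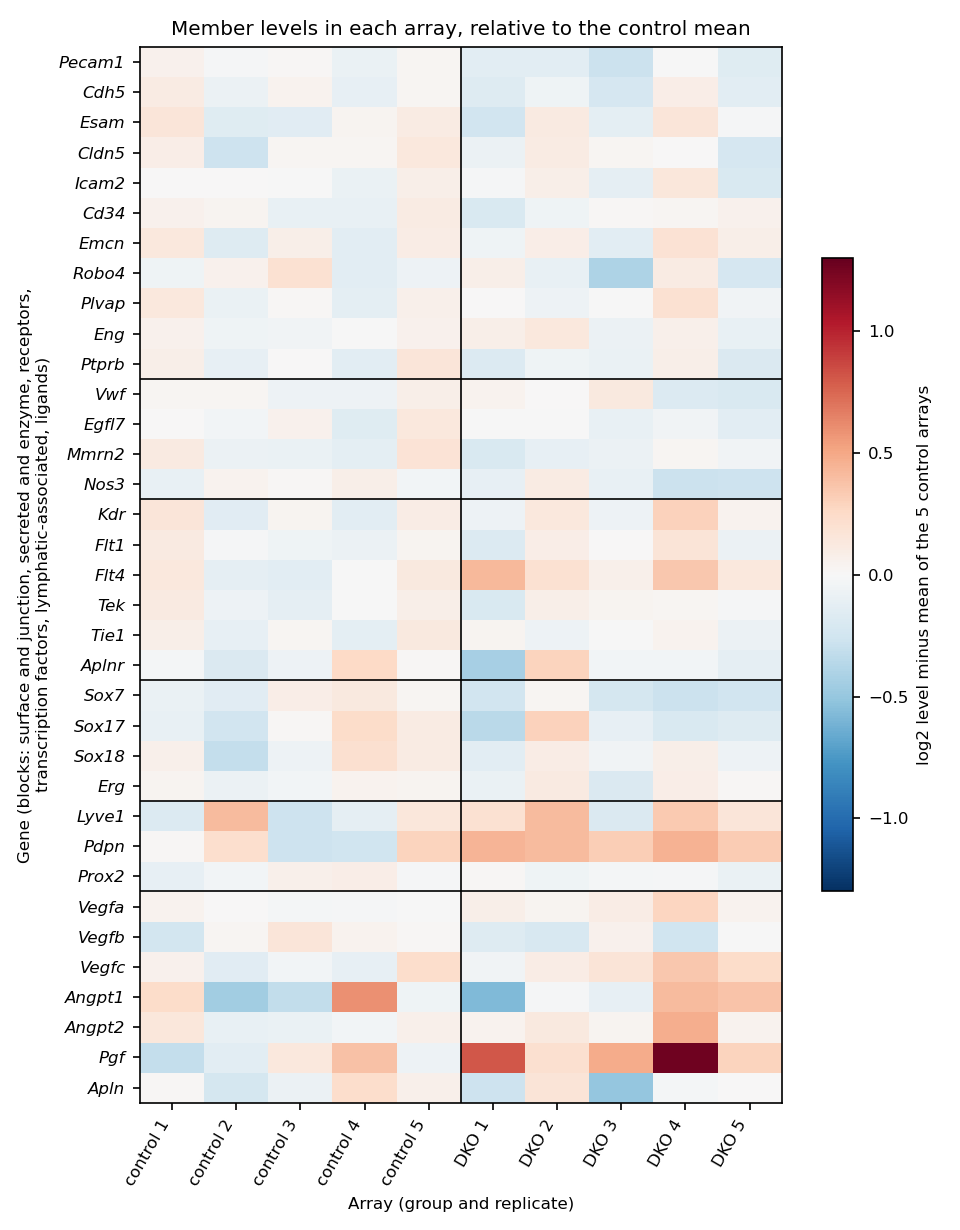
Level of each member (rows, in blocks by role) in each of the 10 arrays (columns), as the log2 level minus the mean of the 5 control arrays; red is higher and blue lower. Most cells are pale, and the deepest red is Pgf in DKO replicate 4.

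The surface and junction genes of blood endothelium gave no call among 11, and all 11 intervals lay within 1.5-fold. Cdh5, the gene of VE-cadherin, measured 10.54, 10.36, 10.48, 10.33 and 10.46 in control and 10.27, 10.38, 10.21, 10.52 and 10.30 in DKO. Its groups overlapped, with a log2 change of -0.10 (95% interval -0.25 to 0.05). Pecam1, the gene of the junction protein CD31, measured 9.58, 9.51, 9.55, 9.45 and 9.56 in control and 9.39, 9.39, 9.25, 9.53 and 9.37 in DKO. All 5 DKO values lay below the control mean, and DKO replicate 4 lay inside the control range. The Pecam1 change was -0.14 ± 0.06 (SE, limma adjusted p = 0.267), or a level 0.906 times that of control. After quantile normalization again it was -0.20 (adjusted p = 0.0737), and in no alternative did it pass.

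Among the other junction and surface genes, Cldn5, the claudin of endothelial tight junctions, differed by -0.03 and Esam, an endothelial adhesion molecule, by -0.02, where neither sign is resolved. The sialomucin genes Cd34 and Emcn, of which Emcn marks capillaries and veins, differed by -0.03 and 0.03. Plvap, which forms the diaphragms of fenestrated capillaries such as those of islets, differed by 0.02 (95% interval -0.13 to 0.17). Eng, the TGF-beta co-receptor endoglin, differed by 0.02, Icam2 by -0.02, Ptprb, the endothelial phosphatase VE-PTP, by -0.08, and the guidance receptor gene Robo4 by -0.11. Robo4 was lowest in DKO replicates 3 and 5, at 8.29 and 8.46, below all control values (8.55 to 8.88), with the other 3 DKO arrays inside the control range.

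Among 4 genes of secreted or enzymatic products of endothelium, all changes were below 0 and none passed. Vwf, the clotting protein that also marks platelets, differed by -0.04, and the matrix proteins Egfl7 and Mmrn2 by -0.06 and -0.08. Nos3, the endothelial nitric oxide synthase, differed by -0.13 (95% interval -0.30 to 0.03). In DKO replicates 1, 4 and 5 Nos3 stood at 7.64, 7.47 and 7.48, below the control range of 7.65 to 7.82, while DKO replicate 2, at 7.85, stood above it.

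The vascular receptors showed the same picture, with 0 of 6 called. Kdr, the gene of VEGFR2 and the main receptor of VEGF-A, measured 8.92, 8.61, 8.79, 8.62 and 8.85 in control and 8.69, 8.90, 8.69, 9.06 and 8.80 in DKO, a change of 0.07 (95% interval -0.12 to 0.26). Flt1, the gene of the decoy receptor VEGFR1, measured 8.69 in both groups (SD 0.08 in control and 0.13 in DKO). Each cluster sums probes along a transcript, so soluble and membrane forms of Flt1 were not separated. Tek, the gene of TIE2, differed by -0.02, its orphan relative Tie1 by -0.01 and the apelin receptor gene Aplnr by -0.07.

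Flt4, the gene of the lymphatic receptor VEGFR3, stood apart from the other receptors in size. It measured 7.30, 7.04, 7.02, 7.15 and 7.28 in control and 7.58, 7.36, 7.23, 7.51 and 7.29 in DKO. All 5 DKO values exceeded the control mean, but DKO replicates 3 and 5 lay within the control range. The change was 0.23 ± 0.08 (SE, limma adjusted p = 0.212). The highest value was in DKO replicate 1, whose hepatocyte list stood far above all others, and without it the change was 0.19 (adjusted p = 0.298).

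The endothelial transcription factors gave no call among 4. Sox7, a SoxF factor of vessel development, measured 7.94, 7.87, 8.11, 8.16 and 8.05 in control and 7.78, 8.05, 7.80, 7.74 and 7.77 in DKO. In 4 of the 5 DKO arrays Sox7 lay below every control value, and DKO replicate 2 lay among them. The change was -0.20 ± 0.08 (SE, limma adjusted p = 0.251). Its relatives Sox17, an arterial factor, and Sox18, a factor upstream of Prox1 in lymphatic development, differed by -0.11 and -0.02. Erg, an ETS factor that maintains endothelial identity, differed by -0.01 (95% interval -0.15 to 0.13).

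**Figure D3:**
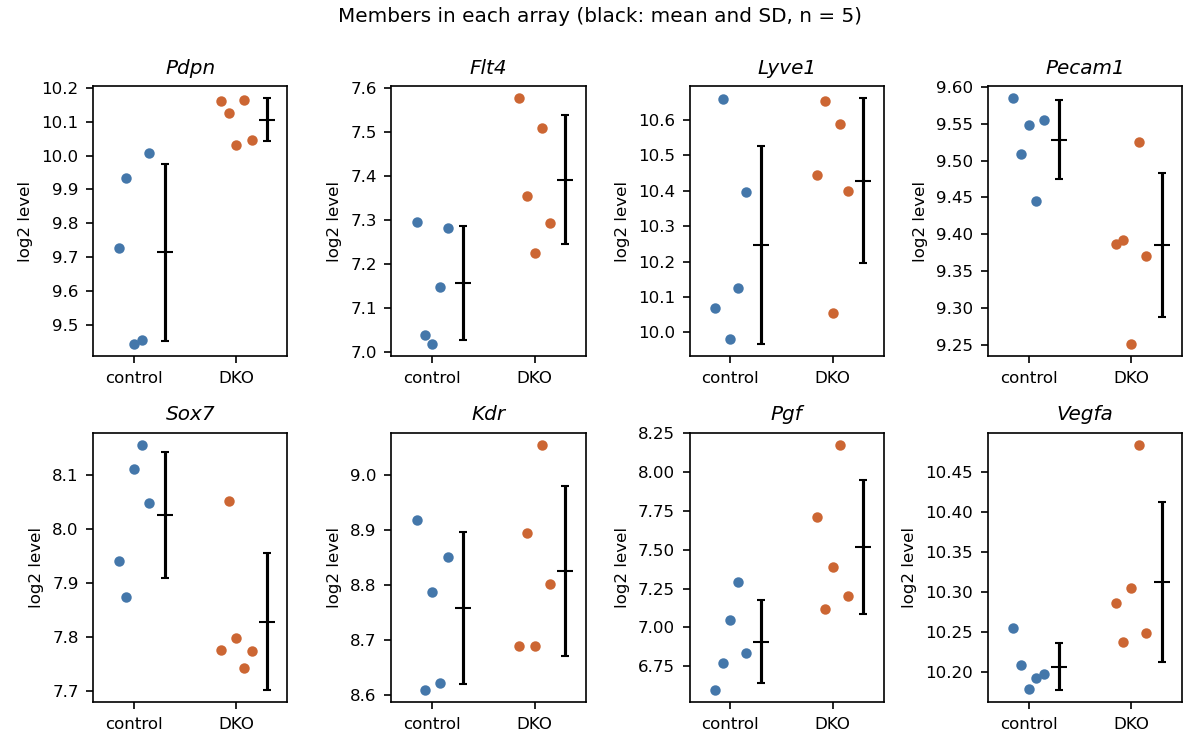
Log2 level of 8 members in each control and DKO array (points), with the mean and SD of each group (n = 5) in black; axes differ between panels and do not start at 0. The groups separate for Pdpn alone, while those of Flt4, Pgf, Sox7 and Pecam1 overlap.

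Pdpn, the gene of podoplanin, differed most among the endothelial markers. It measured 9.73, 9.93, 9.44, 9.46 and 10.01 in control and 10.16, 10.13, 10.03, 10.17 and 10.04 in DKO. Every DKO value lay above every control value, narrowly so for control replicate 5, and the control arrays spread more widely (SD 0.26) than the DKO arrays (SD 0.06). The change was 0.39 ± 0.11 (SE), a 1.31-fold difference, and did not pass (limma adjusted p = 0.103, and 0.0534 to 0.230 on leaving out each array). Podoplanin is a glycoprotein of lymphatic endothelium, but also of mesothelium, of fibroblasts and of some epithelia. The 5 mesothelial markers had a mean of 8.63 to 9.23 in control and 8.70 to 9.14 in DKO, with 0 of 5 past the test. Among control arrays the highest mesothelial means were those of replicates 5 and 2 (9.23 and 9.13), which also held the highest Pdpn. In DKO the mesothelial means were 8.70, 8.74, 9.02, 9.14 and 9.14, in replicate order. The mesothelial genes Msln, Upk3b and Wt1 differed by 0.14, -0.11 and -0.09, and the part of mesothelium in the Pdpn values was not tested. The promoter is shown because Pdpn was the single member whose groups did not overlap. These are the 250 bases before its RefSeq start, on the minus strand of GRCm38.p6 at chr4:143299565-143299814, all in lower case because no motif match was found in them.
Pdpn: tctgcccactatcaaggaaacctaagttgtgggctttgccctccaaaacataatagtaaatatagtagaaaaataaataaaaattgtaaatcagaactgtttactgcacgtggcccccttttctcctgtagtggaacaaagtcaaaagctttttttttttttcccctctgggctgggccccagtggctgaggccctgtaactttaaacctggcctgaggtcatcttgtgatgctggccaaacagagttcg

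The motif searched, on both strands, was GGAATG, the core bound by TEAD factors, which are the DNA-binding partners of YAP and TAZ and so the end of the Hippo pathway. Of the 35 members 19 had a promoter in the RefSeq table, with 26 promoters in all. Matches lay in the 250 bases before the start in 2 of these 19 genes (10.5%), against 13.2% of the 15614 measured genes with a promoter in the table. The 2 were Erg and Prox2, whose levels differed by -0.01 and -0.03. Their matches are printed within 60 bases each, read on the minus strand of GRCm38.p6, with the motif in capitals, at chr16:95530477-95530536 for Erg and chr12:85095728-85095787 for Prox2. A match is a string of letters and not a shown binding site.
Erg: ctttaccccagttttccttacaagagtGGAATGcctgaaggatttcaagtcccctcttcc
Prox2: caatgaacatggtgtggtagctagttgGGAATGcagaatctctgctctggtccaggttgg

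The other lymphatic-associated members did not pass either. Lyve1, a hyaluronan receptor of lymphatic endothelium and of some macrophages, measured 10.07, 10.66, 9.98, 10.13 and 10.40 in control and 10.44, 10.65, 10.05, 10.59 and 10.40 in DKO. Its highest value was in control replicate 2, and the groups overlapped across nearly their whole range, with a change of 0.18 (95% interval -0.13 to 0.50). The 8 leukocyte and macrophage markers, 0 of which passed (Ptprc 0.16, Csf1r 0.10 and Cd68 0.25 in log2 change), had means of 8.65 to 9.03 in control and 8.61 to 9.09 in DKO. Control replicate 2 and DKO replicates 2 and 4, with the highest Lyve1 values, also had the highest of these means (9.03, 9.09 and 9.04); whether macrophages contributed was not tested. Prox2, a homeobox gene related to Prox1, measured 6.25 ± 0.08 in control and 6.22 ± 0.04 in DKO (SD, n = 5 each), close to the level of olfactory receptor genes. At that level Prox2 gives little information on lymphatic vessels.

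The angiogenic ligands gave no call among 7, and their median change was 0.106, against -0.006 over all genes (0.065 against -0.047 after subtraction of array medians). Pgf, placental growth factor, a VEGF relative that binds VEGFR1, differed most of all members. It measured 6.60, 6.77, 7.05, 7.29 and 6.84 in control and 7.71, 7.12, 7.39, 8.17 and 7.20 in DKO. All 5 DKO values lay above the control mean, and DKO replicates 2 and 5 lay below the highest control value, that of replicate 4. The change was 0.61 ± 0.20 (SE), a 1.53-fold difference (95% interval 0.17 to 1.04, limma adjusted p = 0.170). Without DKO replicate 4 it was 0.45 (adjusted p = 0.263).

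Pgf was the single member whose call depended on a covariate. The arrays fell into 5 with Xist levels of 12.11 to 12.29 (control replicates 2, 3 and 4, DKO replicates 1 and 4) and 5 with 5.13 to 5.75; Xist is the RNA of the inactive X chromosome of female cells. With the Xist level as a covariate the Pgf change was 0.72 (limma adjusted p = 0.0257). In that fit 1 of the 35 members passed, and 360 of all 19938 genes. Among Xist-high arrays Pgf averaged 7.04 in 3 control and 7.94 in 2 DKO arrays, a difference of 0.91. Among Xist-low arrays it averaged 6.72 in 2 control and 7.23 in 3 DKO arrays, a difference of 0.52. In each class every DKO array exceeded every control array for Pgf, and the same held for Pdpn. The share of all genes separated in this way was not computed, so the separation is not read as a result about these members. For Pdpn the differences were 0.55 and 0.20 in the same order, and the covariate left it short of the threshold (adjusted p = 0.164). Control replicates 1 and 5, highest in endothelial signal, were the 2 Xist-low controls. Among Xist-low arrays Pecam1, Cdh5 and Plvap differed by -0.23, -0.21 and -0.14, and among Xist-high arrays by -0.04, 0.0 and 0.17. Tie1 was apart in both classes, in opposite directions (-0.16 and 0.11). Sox7 (-0.12 and -0.29) and Nos3 (-0.02 and -0.24) fell more in the Xist-high class. With 2 or 3 arrays of a group per class, this contrast was not tested.

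Vegfa, the main vessel growth factor, measured 10.26, 10.21, 10.18, 10.19 and 10.20 in control and 10.29, 10.24, 10.31, 10.48 and 10.25 in DKO. All 5 DKO values lay above the control mean, yet by little. The change was 0.11 ± 0.05 (SE, limma adjusted p = 0.397), and the probes do not separate its splice forms. Vegfc, the lymphatic growth factor that binds VEGFR3, differed by 0.16 (95% interval -0.04 to 0.36), and Vegfb, which binds VEGFR1, by -0.12. Angpt2, the angiopoietin that antagonises TIE2 signalling in remodelling vessels, differed by 0.15 (95% interval -0.05 to 0.34). Angpt1, the TIE2 agonist, varied widely between arrays (SD 0.42 in control and 0.40 in DKO, n = 5 each). Its change was 0.02, with the widest interval of all members (-0.48 to 0.51). Apln, the gene of apelin, differed by -0.13.

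DKO replicate 4 was the highest DKO array for 5 of the 7 ligands and the highest of all 10 arrays for 4 of them. Without it the Vegfa change was 0.06 and the Angpt2 change 0.06, each smaller by more than 1.5 times, and the Vegfc change 0.11. The same array held the highest Kdr, Emcn and Plvap levels of all.

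The wider vascular gene list, which holds 46 measured genes that are not among the 35, gave 2 higher and 1 lower calls (6.52%, against 2.44% of all genes), and its median change was 0.01. Nrp2, the neuropilin co-receptor that binds VEGF-C and semaphorins and marks veins and lymphatics, fell. It measured 9.42, 9.40, 9.40, 9.44 and 9.48 in control and 9.08, 9.10, 9.08, 9.06 and 9.25 in DKO, with no overlap. The change was -0.32 ± 0.05 (SE, limma adjusted p = 0.00726), a level 0.804 times that of control. Its partner Nrp1 differed by 0.19 (adjusted p = 0.528). The Nrp2 call held on leaving out any single array. With both control replicate 2 and DKO replicate 4 removed it ended (-0.31, adjusted p = 0.0602).

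Bmpr2, the type II receptor of bone morphogenetic proteins, which in endothelium pairs with ALK1, rose. It measured 10.38, 10.33, 10.30, 10.28 and 10.35 in control and 10.58, 10.53, 10.57, 10.61 and 10.52 in DKO, with no overlap. The rise was 0.24 ± 0.04 (SE, limma adjusted p = 0.0149), a 1.18-fold difference. The ALK1 gene Acvrl1 itself differed by -0.06 (adjusted p = 0.642). In these bulk samples the cells that carried the Nrp2 and Bmpr2 changes were not identified, and they need not be endothelial. Subtraction of array medians ended the Bmpr2 call (0.20, adjusted p = 0.0688), as did removal of both control replicate 2 and DKO replicate 4 (0.22, adjusted p = 0.116).

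Itga9, an integrin subunit needed for lymphatic valves and also found on muscle and epithelium, rose. It measured 8.26, 8.24, 8.19, 8.16 and 8.41 in control and 8.81, 8.35, 8.69, 8.78 and 8.80 in DKO. DKO replicate 2 lay below control replicate 5, and the other 4 DKO arrays lay above all control values. The rise was 0.43 ± 0.09 (SE, limma adjusted p = 0.0309). The call held without control replicate 5 or DKO replicate 2 and ended without any one of the other 8 arrays (adjusted p up to 0.0852, without control replicate 3), after quantile normalization again (0.0515) and after subtraction of array medians (0.0620).

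The next smallest p-values on the list were those of Tal1 and Prox1, which did not pass. Tal1, a factor of blood and endothelial precursors, measured 7.85 ± 0.17 in control and 7.58 ± 0.10 in DKO (SD, n = 5 each; change -0.27, limma adjusted p = 0.144). Prox1, the lymphatic identity factor, which the pancreas also uses in islets and progenitors, measured 8.83 ± 0.17 and 8.53 ± 0.15 (change -0.30, adjusted p = 0.150). Both were below the control mean in 5 of 5 DKO arrays. Vegfd, the other lymphatic growth factor gene, was 0.22 higher (adjusted p = 0.305). None of the 15 further endothelial surface genes, such as Cd93 and Adgrf5, and none of the 8 Notch and ephrin genes, such as the arterial ligand gene Dll4, passed.

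**Figure D4:**
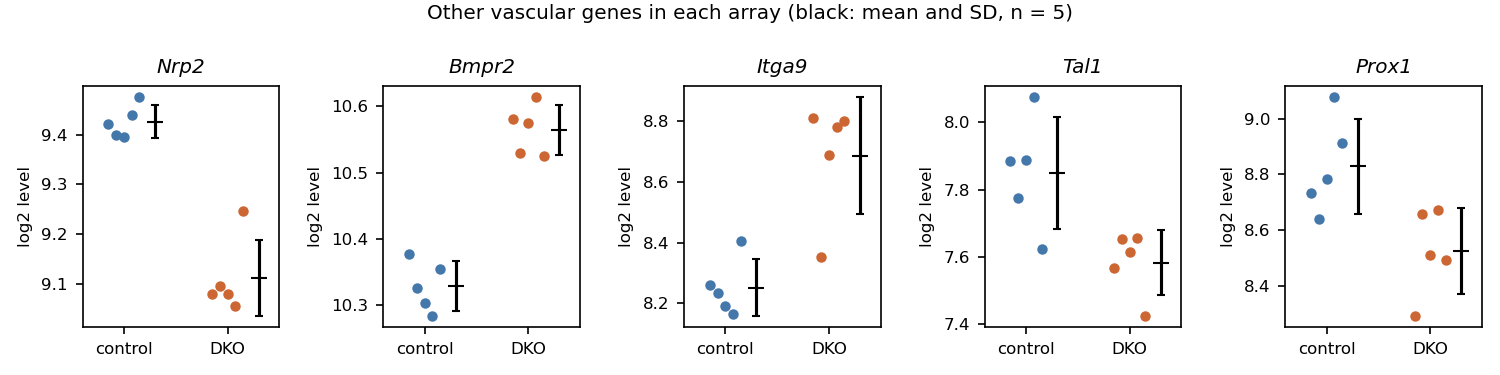
Log2 level of the 5 further vascular genes with the smallest p in each control and DKO array (points), with the mean and SD of each group (n = 5) in black; axes differ between panels and do not start at 0. Nrp2 and Bmpr2 separate the groups, in opposite directions.

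Markers of other cells that vessels adjoin or carry were set beside these genes. Pericyte and smooth muscle genes, which mark the cells that wrap vessels, gave 0 calls among 10, with means of 8.71 to 8.90 in control and 8.72 to 8.90 in DKO. Pdgfrb differed by -0.02, Rgs5 by -0.09 and Cspg4 by -0.09. The platelet genes Pf4, Ppbp and Itga2b differed by 0.12, -0.99 and -0.19, and the red cell genes Alas2 and Slc4a1 by -0.07 and -0.42. The 4 measured platelet genes (list mean 8.39 ± 0.39 in control and 8.07 ± 0.39 in DKO; SD, n = 5 each) and the 2 red cell genes (9.85 ± 0.90 and 9.60 ± 0.34) gave no call. Their list means spread more between arrays than that of the endothelial markers (8.84 ± 0.06 and 8.83 ± 0.08). The 6 adipocyte genes (list means 8.42 to 8.65 in control and 7.60 to 9.56 in DKO) and the 6 B and T lymphocyte genes (5.95 to 6.66 and 5.89 to 6.81) gave no call either. Of these, Adipoq, Plin1 and Cidec differed by -0.40, -0.06 and -0.13, and Cd79a, Cd79b and Ms4a1 by 0.15, 0.10 and 0.23. The hepatocyte genes Alb, Apoa1 and Apoa2 differed by 1.33, 1.08 and 0.90, with none of the 8 on that list called.

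Epithelial lists gave 4 calls. Among 5 measured duct markers 3 rose, the keratin genes Krt7 (1.22) and Krt19 (0.41) and the claudin gene Cldn4 (1.37). Sox9, a duct and progenitor factor, was lower in all 5 DKO arrays than in any control array and did not pass (-0.26, adjusted p = 0.149). The duct list means of 8.99 to 9.21 in control and 9.60 to 9.86 in DKO did not overlap. Of 6 acinar genes 1 fell, Rbpjl (-0.45), which encodes an RBPJ-like partner of the acinar factor PTF1A. Removal of 1 array ended that call in 3 cases: control replicate 3 gave an adjusted p of 0.0689, control replicate 5 gave 0.0608 and DKO replicate 4 gave 0.0562. The acinar genes Cpa1, Cel and Ptf1a differed by -0.04, -0.07 and -0.34, and Bhlha15 by -0.57 (limma adjusted p = 0.225). Of 6 islet genes none passed, though their list means did not overlap (11.42 to 11.56 in control and 11.29 to 11.36 in DKO). Ins2, Gcg and Sst differed by -0.08, -0.14 and -0.11, and Iapp and Pdx1 by -0.32 and -0.28. All 6 islet and all 6 acinar changes lay below 0, against 52.4% of all genes. Epithelial cells are a source of VEGF ligands and can express Pdpn; the part of these differences in the Pdpn and Pgf values was not tested. Of 10 hypoxia-responsive genes, a class to which Vegfa belongs, 1 rose, the carbonic anhydrase gene Car9 (1.09), and the median change of the 10 was 0.011. Slc2a1, Pgk1 and Ldha of that list differed by 0.12, -0.02 and 0.13. At an unadjusted p of 0.05, 4 of the 10 passed (40.0%, against 14.8% of all genes). Car9 and Egln3 (0.43) were higher, and Ndrg1 (-0.30) and Pdk1 (-0.25) lower. Of 11 secreted genes that act on vessels, 1 rose, Ccn1 (1.43), a matricellular ligand of endothelial integrins, and 1 fell, Adamts1 (-0.52), a protease that can bind VEGF-A. Of the 11, 9 changes lay above 0, against 9497 of all 19938 genes. At an unadjusted p of 0.05, 4 of the 11 were higher and 1 lower (45.5%, against 14.8% of all genes). Ccn2 (0.72, adjusted p = 0.0850) and Thbs1 (0.36, adjusted p = 0.142), which encode further matricellular proteins, were higher in every DKO array than in any control array and did not pass. The list means did not overlap, at 9.09 to 9.25 in control and 9.26 to 9.60 in DKO.

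**Figure D5:**
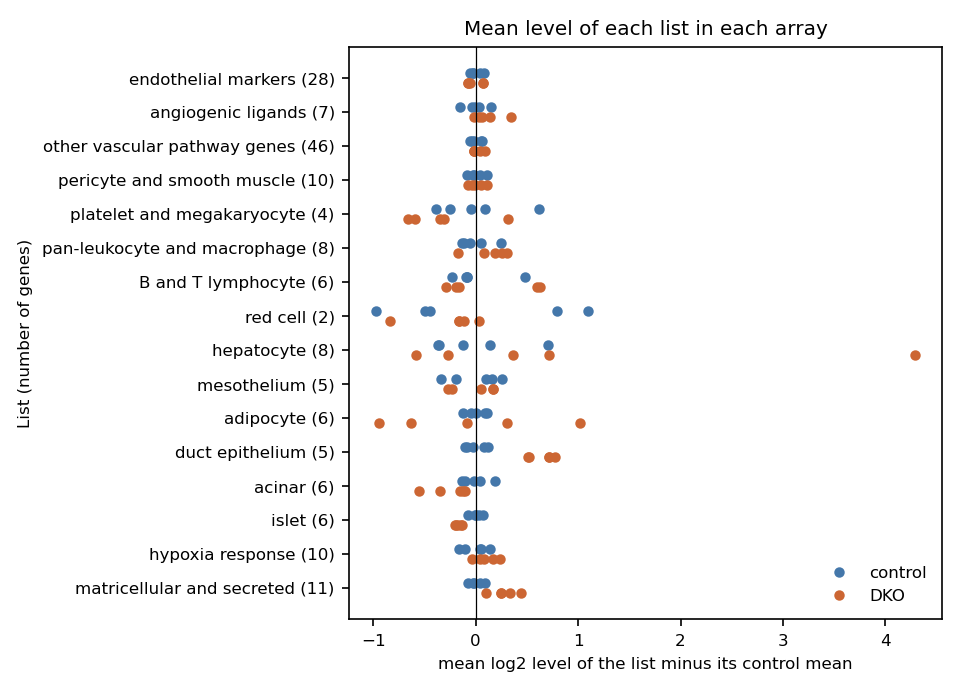
Mean log2 level of each gene list in each array, minus the mean of its control arrays (blue control, orange DKO, n = 5 each; number of genes in brackets). Endothelial markers and pericyte genes stay near 0 in all arrays, duct genes lie apart between groups, and 1 DKO array is far out on the hepatocyte list.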

How the data were processed

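Pancreas RNA of 10 samples, 5 control and 5 DKO, was measured on Affymetrix Mouse Gene 1.0 ST arrays, processed with Affymetrix Expression Console per the submitters' processing notes; the sources used here give neither its version nor how probes were summarized and normalized. The deposited values are log2 levels and were used as deposited. Array medians over all clusters were 7.12 to 7.15. Over the tested genes alone the array medians averaged 7.564 in control and 7.605 in DKO. Subtraction of array medians used those of the tested genes. Of 35556 clusters 21789 had 1 gene symbol, 1621 several and 12146 none; the brightest 1-symbol cluster stood for each of 19938 genes. Symbols were updated, and promoters taken, from RefSeq tables of GRCm38.p6; 21698 clusters matched by gene identifier. No build is named for the array, so only promoter coordinates are given.

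DKO was tested against control by lmFit and eBayes of limma 3.58.1 under R 4.3.3 (two-sided, 10.96 total degrees of freedom), adjusted over all genes at 0.05; adjusted p-values are from this fit, which was also tested on simulated data. Precision is limited by having 5 arrays in a group. Members and lists were chosen with earlier results of these data known, so no list was tested as such. Genes named were all members, the wider vascular genes past the threshold or with the 5 smallest p-values, and the first 3 and any called gene of each marker list; other names, such as Sox9, were chosen after their values were seen. Replicate numbers were not treated as pairs.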

Additional observations from a re-analysis of the deposited data

Results flagged for a closer look

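Among 194 groups of 5 values checked, 14 had a highest or lowest array far from the other 4, by a criterion that chance meets in about 1 group in 20. Among members, Cldn5 was low in control replicate 2 (8.21, next 8.50), Plvap high in DKO replicate 4 (9.65, next 9.45) and Sox7 high in DKO replicate 2 (8.05, next 7.80). Vegfa (10.48, next 10.31) and Angpt2 (7.11, next 6.78) were high in DKO replicate 4.

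Of the other vascular genes, Nrp2 was high in DKO replicate 5 (9.25, next 9.10) and Itga9 low in DKO replicate 2 (8.35, next 8.69). Among markers of other cells, Slc4a1, the red cell anion exchanger, was low in DKO replicate 3 (8.75), as was the red cell mean (9.01). Apoa2 was high in DKO replicate 1 (11.75), as was the hepatocyte mean (11.79). Sst was high in DKO replicate 4 (12.00), Car9 low in control replicate 5 (6.80), and the B and T lymphocyte mean high in control replicate 4 (6.66). DKO replicate 4 gave 4 of the 14.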

How the results depend on the processing

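The members gave 0 calls under 21 of the 22 alternatives. With the Xist level as a covariate 1 of the 35 (Pgf) passed, where 360 of all 19938 genes did. Among the dimmest 50% of genes were 8 members, which had no value when those were left out. For 16 members whose change lay within 1 standard error of 0 the sign turned in some alternative, with no such change over 0.20 and no adjusted p under 0.763. The wider vascular genes gave 3 calls, 1 after subtraction of array medians, 0 without control replicate 2 and DKO replicate 4 together and 0 with the replicate block. Over all genes 487 passed, 298 without moderated variance, 178 with the replicate block, 151 without control replicate 2 and DKO replicate 4 together, and 260 to 433 on leaving out each array. Deviations of same-numbered arrays correlated above 0.1 in 2 of 5 pairs (-0.267 to 0.290). Of the 5 control arrays, 0 correlated best with their own number. These values gave no clear sign of pairing by replicate number, but they cannot exclude a shared litter or batch, which the labels do not state. The cause of the differences between alternatives was not tested. Near background, as for Prox2, a change would be compressed.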

Other observations

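At an unadjusted p of 0.05, 12 of the 46 wider vascular genes passed (26.1%, against 14.8% of all genes), 7 higher and 5 lower. Of these, the Notch ligand gene Dll4 (-0.16), the venous factor gene Nr2f2 (0.17) and the BMP inhibitor gene Smad6 (-0.18) did not pass the adjusted threshold (limma adjusted p = 0.312, 0.296 and 0.323). Hhex, a homeobox gene of endothelium and of pancreatic epithelium, was 0.29 higher (limma adjusted p = 0.225) and passed without DKO replicate 2 (adjusted p = 0.0493).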
